A study of Mus musculus with 6 samples.

Results

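The genes described here are the 3 transforming growth factor beta (TGF-beta) ligand genes Tgfb1, Tgfb2 and Tgfb3, the 3 receptor genes Tgfbr1, Tgfbr2 and Tgfbr3, the latent TGF-beta binding protein gene Ltbp2, and the fasciclin-domain matrix genes Tgfbi and Postn. They are 9 of the 35275 genes in the count table, taken by their gene names, and they were selected on names with their fold changes in the same comparison already known. Their differences between the groups are therefore given as a description without a test. RNA was sequenced from NIH3T3 cells, an established line of mouse embryo fibroblasts, in 3 libraries labelled NgBR overexpression and 3 wild-type libraries. The cells labelled NgBR overexpression had received a pIRES plasmid carrying HA-tagged NgBR, the Nogo-B receptor, and were made into a stable line under G418, while wild-type cells are described without a vector or a selection, so that the transgene and the selection cannot be told apart. The labels do not say whether the stable line was 1 clone or a pool, nor which species the NgBR sequence came from. Both lines grew in DMEM with 10% calf serum.

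TGF-beta is secreted as a latent complex in which the mature ligand stays wrapped in its own propeptide, and latent TGF-beta binding proteins tether that complex to the extracellular matrix. Once released, the ligand binds the type II receptor TGFBR2, which recruits and phosphorylates the type I receptor TGFBR1, and TGFBR1 passes the signal to SMAD proteins. TGFBR3, also called betaglycan, is a co-receptor that presents the ligand, TGF-beta 2 above all. In fibroblasts the pathway is known for driving matrix production, and TGFBI and periostin, the product of Postn, are secreted matrix proteins named or known for their induction by TGF-beta.

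Depth differed between the groups, with 7369961 to 10358381 counts in the libraries labelled NgBR overexpression and 29515072 to 35511769 in wild-type libraries, a 3.50-fold difference in mean depth. Nus1, the mouse gene of NgBR, was at 184, 185 and 165 CPM (counts scaled to a common library size) in the libraries labelled NgBR overexpression and at 212, 187 and 233 CPM in wild-type libraries. The labelled libraries all lay below wild type, against the label, and the difference was not called (log2 fold change -0.24, edgeR quasi-likelihood adjusted p = 0.786). Whether reads of the transgene were counted at this gene was not tested. Directions below are those of the libraries as labelled. Both libraries numbered 2 stood apart from the other 4 on the second principal component, which took 28.6% of the variance, and results that rest on them are also given without them. All 8 fibroblast markers were measured in each group, with summed levels of 14350 to 17840 CPM in the labelled and 11347 to 15188 CPM in wild-type libraries. Of the markers of other cell types, 6 each, epithelial genes summed to 0.791 to 2.39 against 0.237 to 0.773 CPM, with Epcam, Krt18 and Cldn4 at 0 in all libraries. Endothelial genes summed to 3.15 to 4.21 against 1.93 to 2.58 CPM, and leukocyte genes to 2.95 to 3.96 against 2.20 to 4.39 CPM. Skeletal muscle genes, with Myod1 and Myog at 0, summed to 0.573 to 4.25 against 0.993 to 1.29 CPM. Neural genes summed to 10.4 to 24.4 against 7.71 to 9.99 CPM, with Syt1 called higher and the 3 others tested not called. Of these 3, Map2 was at 10.4, 6.04 and 7.55 CPM in the labelled and at 2.61, 3.69 and 1.69 CPM in wild-type libraries. Its groups did not overlap (log2 fold change 1.58, edgeR adjusted p = 0.0562), while those of Tubb3 and Snap25 did (0.16 and 0.45). Syt1 had 5, 6 and 6 counts in the labelled and 0, 2 and 0 in wild-type libraries. It passed the filter on low counts through the labelled libraries alone, so that its call adds nothing. The part of the markers of other cell types in the results was not tested.

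The ligands came first in the order of the pathway. Tgfb1, the most widely studied ligand (mm10 chromosome 7, 25687002 to 25705077, plus strand), was at 42.7, 37.9 and 38.6 CPM in libraries 1 to 3 labelled NgBR overexpression and at 33.4, 39.1 and 34.0 CPM in the wild type. The ranges overlapped, and group averages were 39.7 ± 2.57 and 35.5 ± 3.15 CPM (SD, n = 3 each), and the log2 fold change was 0.16 (SE 0.20). Tgfb3 (chromosome 12, 86056745 to 86079041, minus strand) was at 60.9, 75.0 and 69.8 CPM in the labelled libraries and at 72.5, 55.4 and 83.7 CPM in wild-type libraries, so that the wild-type values enclosed those of the other group. Its log2 fold change was -0.04 (SE 0.23), and the sign turned without labelled library 1 (0.03), without wild-type library 3 (0.10) and under an offset for exonic length (0.00).

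Tgfb2, the ligand that depends most on betaglycan (chromosome 1, 186622792 to 186705989, minus strand), was the least abundant of the ligands. It had 33, 27 and 37 counts in the labelled libraries, or 4.63, 2.67 and 3.54 CPM. Wild-type libraries held 216, 511 and 206 counts, or 6.19, 17.3 and 6.20 CPM. All 3 labelled libraries lay below all 3 wild-type libraries, and wild-type library 2 stood far above the other wild-type libraries. In bulk libraries, fewer cells that express a gene and less RNA per cell cannot be told apart. Group averages were 3.61 ± 0.982 and 9.89 ± 6.41 CPM (SD, n = 3 each), and the log2 fold change was -1.46 (SE 0.46). Without wild-type library 2 the log2 fold change was -0.79, and without both libraries numbered 2 it was -0.62. An annotated antisense transcript shares 124 exonic bases with Tgfb2 and had 0 counts in all 6 libraries.

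Levels were compared between genes as CPM per kilobase of exon. The 3 ligands together came to 28.8 ± 1.44 CPM per kilobase in the labelled libraries and 29.6 ± 2.75 in wild-type libraries (SD, n = 3 each), with overlapping ranges. Tgfb3 made up 66.0%, 73.5% and 71.4% of this sum in the labelled libraries and 73.6%, 60.4% and 76.0% in wild-type libraries, and was the leading ligand transcript in all 6. Tgfb1 made up 27.5 ± 3.17% in the labelled and 24.0 ± 4.11% in wild-type libraries. Tgfb2 made up 2.93%, 1.53% and 2.11% in the labelled libraries, against 3.67%, 11.01% and 3.29% in wild-type libraries, so that the groups did not overlap and the highest share again lay in wild-type library 2.

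**Figure D1:**
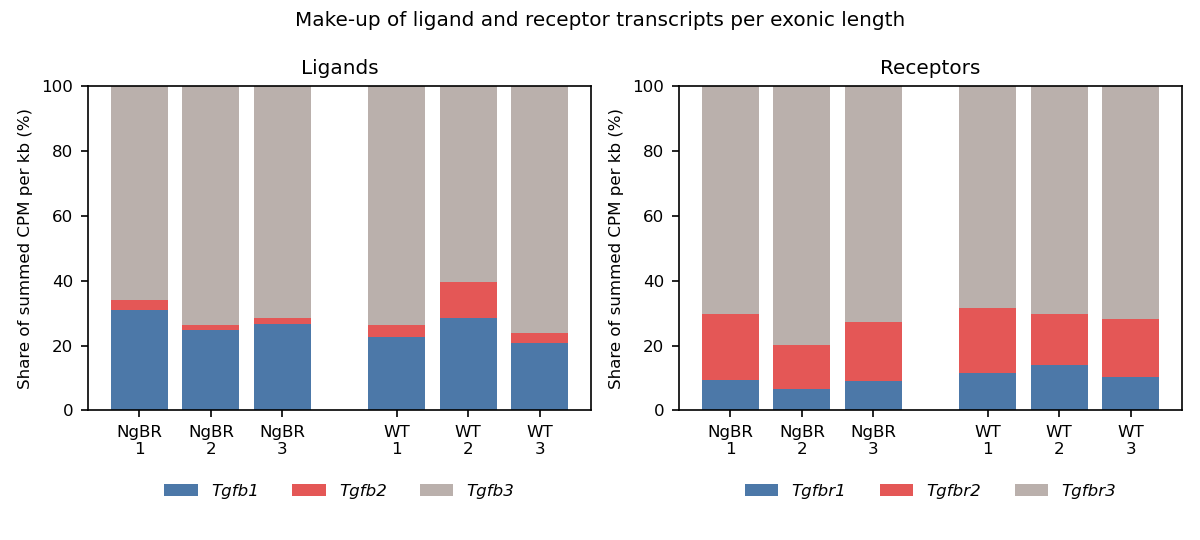
Share of each ligand (left) and each receptor (right) in the summed CPM per kilobase of exon, in percent, with 1 stacked bar per library, NgBR for libraries labelled NgBR overexpression and WT for wild type. Tgfb3 takes between 60.4% and 76.0% of the ligand sum, Tgfbr3 between 68.5% and 79.9% of the receptor sum, and the Tgfb2 share is highest in wild-type library 2 at 11.01%.

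Of the receptors, Tgfbr1, the type I kinase that signals to SMADs (chromosome 4, 47353222 to 47414931, plus strand), was lower in each labelled library than in any wild-type library. It was at 39.0, 47.3 and 33.0 CPM in the labelled and at 60.1, 79.0 and 59.8 CPM in wild-type libraries. Group averages were 39.8 ± 7.19 and 66.3 ± 11.01 CPM (SD, n = 3 each), and the log2 fold change was -0.74 (SE 0.23). This value was -0.74 also without both libraries numbered 2, and lay between -0.89 and -0.59 with each library left out in turn, with all 6 values negative. Tgfbr2, the type II receptor that binds the ligand first (chromosome 9, 116084293 to 116175360, minus strand), was at 105, 121 and 82.1 CPM in the labelled and at 129, 111 and 128 CPM in wild-type libraries. Its ranges overlapped through labelled library 2 and wild-type library 2, with a log2 fold change of -0.26 (SE 0.22) that became -0.46 without both of these. The ratio of Tgfbr1 to Tgfbr2 per kilobase of exon was 0.467, 0.488 and 0.503 in the labelled libraries, against 0.585, 0.890 and 0.585 in wild-type libraries, and the groups did not overlap.

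Tgfbr3, the betaglycan gene (chromosome 5, 107106570 to 107289629, minus strand), was at 291, 574 and 261 CPM in the labelled and at 354, 397 and 411 CPM in wild-type libraries. Labelled library 2 lay above all wild-type libraries and the other labelled libraries below them. The log2 fold change of -0.04 (SE 0.33) was -0.49 without labelled library 2, but 0.10 without labelled library 1 and 0.16 without labelled library 3, so that no direction can be given. Per kilobase, Tgfbr3 held 74.3 ± 4.99% of the receptor sum in the labelled and 70.1 ± 1.60% in wild-type libraries (SD, n = 3 each). Tgfbr1 held 9.44%, 6.59% and 9.17% in the labelled libraries, below the 11.6%, 14.01% and 10.5% in wild-type libraries.

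Ltbp2, unlike its relatives LTBP1, LTBP3 and LTBP4, is known as a matrix protein that does not bind latent TGF-beta covalently (chromosome 12, 84783212 to 84876532, minus strand). It was at 330, 442 and 220 CPM in the labelled and at 393, 702 and 298 CPM in wild-type libraries. The groups overlapped, and in both the library numbered 2 was the highest and library 3 the lowest. Its exons span 8184 bases, and the trend of a library's values with exonic length had the same order in both groups. Spearman's rho across genes, between exonic length and a library's deviation from the mean of all 6, was 0.0684, 0.347 and -0.467 in labelled libraries 1 to 3, against -0.226, 0.242 and -0.299 in wild-type libraries. Division by length leaves this trend between libraries in place. With an offset for exonic length, the log2 fold change of Ltbp2 was again -0.49. The log2 fold change of -0.49 (SE 0.38) was -0.06 without wild-type library 2, but -0.76 when labelled library 2 was left out. An antisense gene, D030025P21Rik, shares 764 exonic bases with Ltbp2 and had 45, 40 and 54 counts in the labelled and 129, 47 and 135 in wild-type libraries, against 2307 to 4464 and 9900 to 20751 counts for Ltbp2.

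Tgfbi, whose product is a secreted protein that binds collagens and integrins (chromosome 13, 56609523 to 56639562, plus strand), was the member with the largest difference. It had 0, 0 and 0 counts in the labelled libraries and 819, 579 and 660 counts in wild-type libraries, or 23.5, 19.6 and 19.9 CPM. The mean wild-type level of 20.97 ± 2.15 CPM (SD, n = 3) would have given about 149, 212 and 219 counts at the depth of labelled libraries 1 to 3. Set against a floor of 3 counts over the whole labelled group, which covers counting error only, Tgfbi was at least 193.6-fold lower. No exon of another annotated gene overlaps its exons. In wild-type libraries its level per kilobase, 5.56 ± 0.571, stood below that of Tgfb1 at 7.04 ± 0.624 and above that of Tgfb2 at 1.71 ± 1.11 (SD, n = 3).

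Postn encodes periostin, which has the same fasciclin domains as TGFBI (chromosome 3, 54361109 to 54391037, plus strand). It had 12, 14 and 26 counts in the labelled libraries, or 1.68, 1.39 and 2.48 CPM. Wild-type libraries held 106, 300 and 124 counts, or 3.04, 10.2 and 3.73 CPM. The groups did not overlap, and wild-type library 2 stood far above the other wild-type libraries, as it did for Tgfb2. Group averages were 1.85 ± 0.568 and 5.64 ± 3.92 CPM (SD, n = 3 each), and the log2 fold change of -1.59 (SE 0.52) was -0.86 without wild-type library 2 and -0.67 without both libraries numbered 2. Stab1 and Stab2, the other mammalian genes with fasciclin domains, were below the filter on low counts. Stab1 had 0, 0 and 0 counts in the labelled and 4, 3 and 7 in wild-type libraries, and Stab2 had 9, 0 and 5 against 10, 19 and 11.

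**Figure D2:**
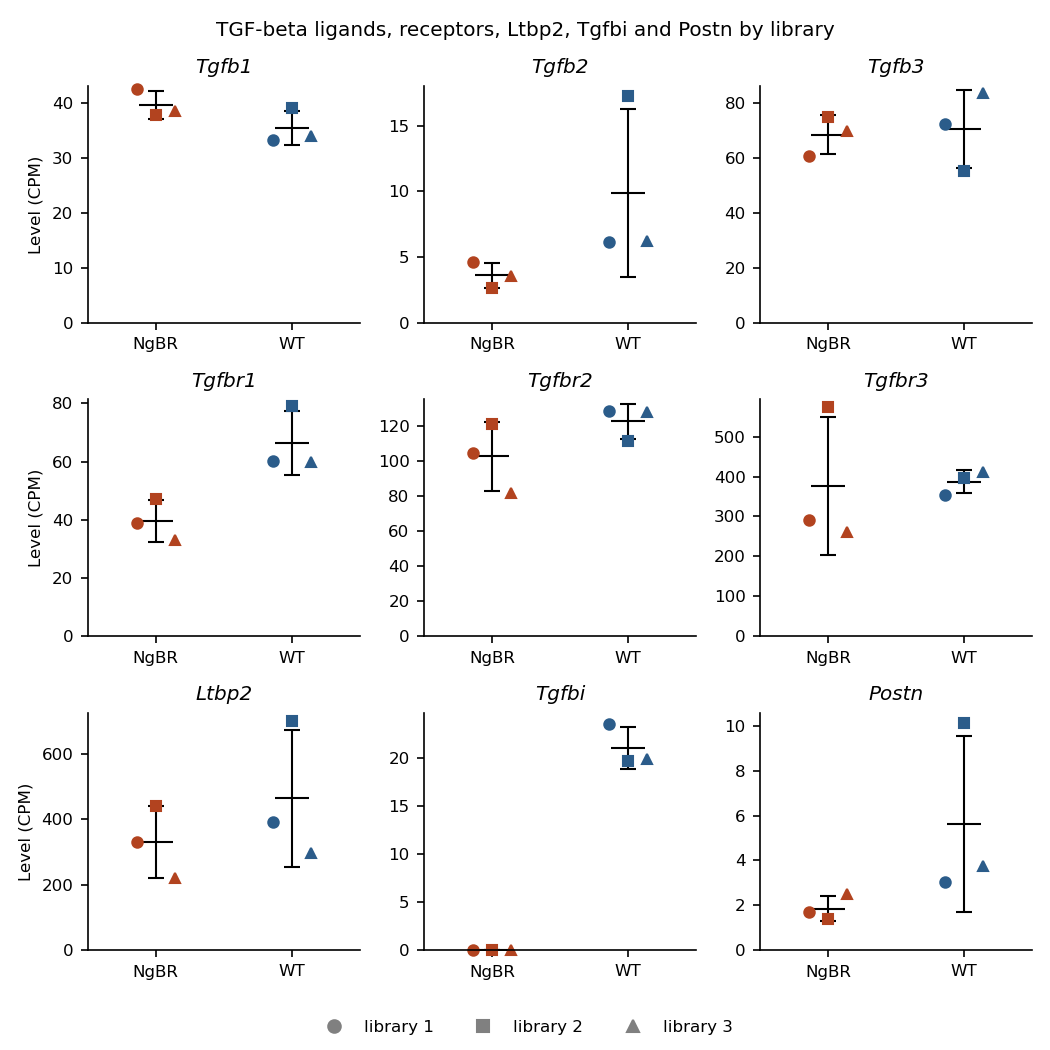
Level in CPM of the 9 genes in each library, with NgBR for the libraries labelled NgBR overexpression and WT for wild type, marker shapes for library numbers, and the mean ± SD of 3 libraries in black. Tgfbi is at 0 in all labelled libraries, Tgfb2, Tgfbr1 and Postn lie below the wild-type range, and wild-type library 2 is the highest for Tgfb2, Tgfbr1, Ltbp2 and Postn.

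The upstream sequences of 3 members whose groups did not overlap, Tgfbi, Tgfb2 and Postn, are given to show the sequence before the start of the transcript with 0 counts beside those that were lower but present. RefSeq (GRCm38.p6) start sites were found for 7 of the 9 members, and the 250 bases before the start are shown 5′ to 3′, for Postn those nearest its annotated gene start. Capitals mark the Smad box CAGAC, or GTCTG on the other strand, and the TATA box TATAAA.
Tgfbi (chr13:56609336-56609585, plus strand): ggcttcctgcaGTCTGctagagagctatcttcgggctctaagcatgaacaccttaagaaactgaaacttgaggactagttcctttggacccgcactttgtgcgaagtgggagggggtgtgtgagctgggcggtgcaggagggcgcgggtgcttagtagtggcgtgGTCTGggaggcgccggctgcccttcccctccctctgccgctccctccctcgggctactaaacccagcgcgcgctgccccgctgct
Tgfb2 (chr1:186705990-186706239, minus strand): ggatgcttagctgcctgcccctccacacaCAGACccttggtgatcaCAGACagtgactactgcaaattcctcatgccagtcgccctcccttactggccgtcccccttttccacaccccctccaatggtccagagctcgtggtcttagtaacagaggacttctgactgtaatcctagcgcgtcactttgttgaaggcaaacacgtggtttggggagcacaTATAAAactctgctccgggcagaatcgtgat
Postn (chr3:54360857-54361106, plus strand): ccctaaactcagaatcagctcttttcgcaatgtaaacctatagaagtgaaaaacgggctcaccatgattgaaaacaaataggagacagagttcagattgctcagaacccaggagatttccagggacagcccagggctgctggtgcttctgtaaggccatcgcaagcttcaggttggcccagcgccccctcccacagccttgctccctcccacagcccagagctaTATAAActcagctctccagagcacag
In these windows Tgfbi and Tgfb2 each held 2 Smad boxes and Postn none, and 42.2% of all 32851 windows of this length in the RefSeq table held at least 1. The TATA box was found once in Tgfb2, 31 bases before the start, and once in Postn, 26 bases before it, but not in Tgfbi, and 12.4% of all windows held it on either strand. The Tgfbi window had 15 CpG dinucleotides and 62.4% G and C, the Tgfb2 window 8 and 53.6%, and the Postn window 4 and 52.0%, against a median of 6 CpG over all windows. A second RefSeq window of Postn, farther upstream (chr3:54359017-54359266), held 1 Smad box, no TATA box and 3 CpG. Tgfbr1, the other member whose groups did not overlap, has a window with 29 CpG and no Smad box (chr4:47352972-47353221) and another with 3 CpG and 1 Smad box (chr4:47385966-47386215), neither with a TATA box. Of the members whose groups overlapped, the window of Ltbp2 also held 2 Smad boxes, that of Tgfbr2 1 and that of Tgfb1 none. None of these windows held a TATA box. A match of letters is a description and not a site, and these windows do not hold the whole promoter. The RefSeq start of Tgfbi lies downstream of its GENCODE start, so that the end of its window falls within the GENCODE gene.

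In order of level per kilobase, wild-type libraries had Tgfbr3 at 59.2 ± 4.51, Ltbp2 at 56.7 ± 25.8, Tgfb3 at 20.9 ± 4.22, Tgfbr2 at 15.0 ± 1.21 and Tgfbr1 at 10.2 ± 1.69, then Tgfb1, Tgfbi, Tgfb2 and Postn at 0.648 ± 0.451 (SD, n = 3). The ranges of Tgfbr3 and Ltbp2 overlapped, as did those of Tgfb2 and Postn, and those of the other neighbours did not. The libraries labelled NgBR overexpression had Tgfbr3 at 57.4 ± 26.4, Ltbp2 at 40.4 ± 13.5, Tgfb3 at 20.3 ± 2.11, Tgfbr2 at 12.5 ± 2.41, Tgfb1 at 7.88 ± 0.510, Tgfbr1 at 6.08 ± 1.10, Tgfb2 at 0.624 ± 0.170, Postn at 0.213 ± 0.0653 and Tgfbi at 0 (SD, n = 3). There, of neighbouring pairs, only the ranges of Tgfbr3 and Ltbp2 overlapped. Tgfbr1 thus ranked above Tgfb1 in wild-type libraries and below it in the labelled ones.

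All 9 members passed the filter on low counts, 8 had negative and 1 a positive log2 fold change, and their median was -0.49 beside -0.01 over all 12651 genes tested. Over all genes tested, 48.7% had a positive log2 fold change. Of the 8, Tgfb3 and Tgfbr3 were each at -0.04 and changed sign in 3 and 2 alternatives, so that no direction can be given for them. The edgeR quasi-likelihood test across all genes called Tgfbi, 1 of the 9, at an adjusted p under 0.05, beside 3.39% of all genes tested and 1.35% called lower. Tgfbi, at 0 counts in all labelled libraries, passed the filter through wild-type libraries alone, so that its call adds nothing to the description. DESeq2 called Tgfbi alone of the members, beside 5.69% of genes with an adjusted p. Without a filter on low counts edgeR called Tgfb2 and Postn as well, beside 688 genes called in all in that setting and 429 with the filter. In every other alternative Tgfbi was the only member called. For 4 members, Tgfb2, Tgfbr1, Tgfbi and Postn, all labelled libraries lay below all wild-type libraries, beside 9.37% of all genes tested, and none lay wholly above, beside 9.21%. These counts come from the comparison on which the genes were chosen. The labels do not say whether the libraries came from separate cultures, and if they did not, the errors and p-values hold technical spread alone.

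**Figure D3:**
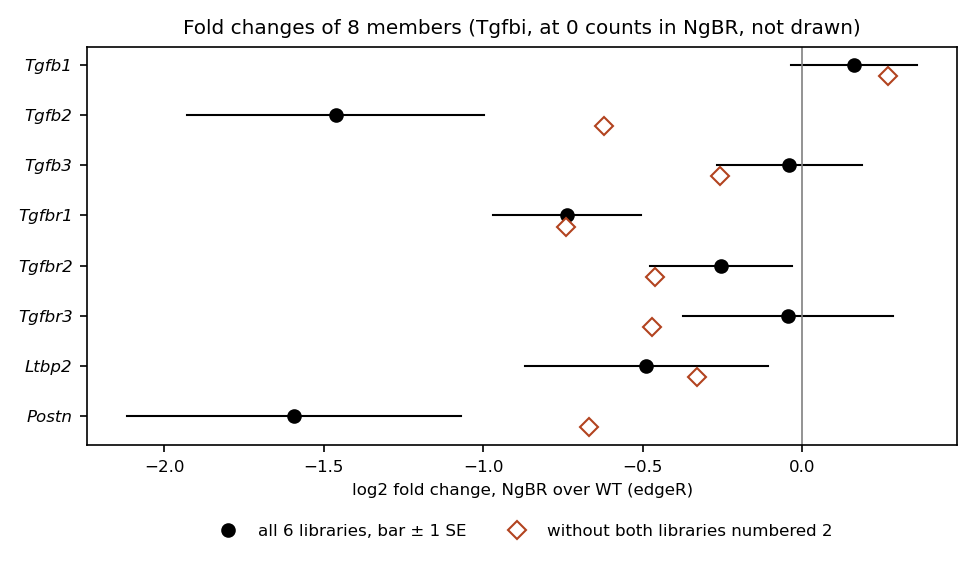
Log2 fold change by edgeR of 8 members for the labelled libraries relative to wild type, with filled points and bars of ± 1 SE for all 6 libraries and open diamonds for the fit without both libraries numbered 2. Tgfbr1 stays at -0.74 without them, while Tgfb2 and Postn move to -0.62 and -0.67. Tgfbi has no counts in the labelled libraries and is not drawn.

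The position of Tgfbi was examined after its values were seen. Within 1 Mb on either side, 19 other protein-coding genes are annotated on mm10, of which 8 were expressed enough to be tested. Smad5, a BMP-pathway SMAD gene that starts 63.4 kb beyond Tgfbi, had 733, 1316 and 862 counts in the labelled and 2937, 3104 and 2750 in wild-type libraries, and its log2 fold change was 0.21 (edgeR adjusted p = 0.849). The 8 neighbours had log2 fold changes between -0.17 and 0.25, and 0 were called by edgeR (lowest adjusted p = 0.771, 0 at an unadjusted p under 0.05), 0 by DESeq2 and 0 by limma-voom. The 11 untested neighbours had at most 10 counts in any library.

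Likeness in pattern to Tgfbi was taken as Pearson's correlation of log2(CPM + 0.5) over the 6 libraries, for 9663 genes with a mean of at least 5 CPM. The members and predicted genes, with symbols of Gm and digits or ending in Rik, were left out. The genes most like Tgfbi were Ap3b2, an adaptor complex subunit of neurons, the proteoglycan gene Lum, Cdo1, which encodes cysteine dioxygenase, Sirpa, whose product binds CD47, and the membrane skeleton gene Epb4.1, with r between 0.997 and 0.998. With 3 libraries at the same value of 0, this measure mainly follows the split between the groups and says little of size. Epb4.1 had 0 counts in all labelled libraries and Lum 1, while Cdo1 was at 1.96, 1.98 and 2.01 CPM in the labelled and at 23.7, 26.5 and 20.8 CPM in wild-type libraries. Sirpa was at 81.8, 81.8 and 80.7 CPM against 94.5, 93.6 and 93.1 CPM. The genes most like Postn were Mtfr1, Wdr25, Hook2, Csf1 and Dph1, with r between 0.987 and 0.992. Csf1, the macrophage growth factor gene, was at 388, 392 and 455 CPM in the labelled and at 604, 1284 and 699 CPM in wild-type libraries. All 5 were highest in wild-type library 2.

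Other genes of the pathway were examined in 8 lists of 112 genes, of which 93 passed the filter. The edgeR test called 5 of these, 4 higher (Fap, at low counts, included) and 1 lower, which is 5.38% beside 3.39% of all genes tested. Fap passed the filter through the labelled libraries alone, so that its call adds nothing and the share is not read as above that of all genes. At an edgeR unadjusted p under 0.05 there were 19 of the 93, Fap included, beside 11.4% of all genes tested. The lists were chosen with earlier results of these data known, so that this count is a description. The members of the lists had a median log2 fold change of 0.06 beside -0.01 over all genes. Smad7, Smad6, Fap and Tagln are described below.

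Smads and their regulators held 2 of these calls among 20 tested, both higher and both inhibitory Smads, beside 2.04% of all genes called higher. Smad7 encodes the SMAD that blocks TGFBR1 and is itself induced by TGF-beta. It rose to 89.8, 122 and 91.4 CPM in the labelled libraries, against 29.8, 48.0 and 46.5 CPM in wild-type libraries, and the groups did not overlap. Its log2 fold change was 1.29 (SE 0.26, edgeR adjusted p = 0.0283). Smad6, which mainly restrains BMP signals, rose to 39.0, 33.5 and 33.4 CPM, against 17.3, 12.3 and 17.8 CPM in wild-type libraries (log2 fold change 1.16, SE 0.23, edgeR adjusted p = 0.0277). The other 18 regulators were not called, Smad2, Smad3 and Smad4 among them with log2 fold changes of -0.04, 0.54 and 0.30, and the list median was 0.17. Of the 20, 5 had an edgeR unadjusted p under 0.05, beside 11.4% of all genes tested. In 4 of the 20 all labelled libraries lay above wild type, beside 9.21% of all genes, and in 1 below, beside 9.37%. The 4 were Smad6, Smad7, Smurf2 (log2 fold change 0.60) and Pmepa1 (0.46), and the 1 below was Strap (-0.30). The call of Smad7 was lost on leaving out labelled library 1, 2 or 3 (edgeR adjusted p of 0.0926, 0.0784 and 0.0674) and without wild-type libraries 1 or 3 (0.131 and 0.0679). That of Smad6 was lost without labelled libraries 1 or 3 (0.126 and 0.0674), without wild-type libraries 1, 2 or 3 (0.0973, 0.0538 and 0.0789) and with all libraries thinned to the shallowest (0.0662), while both genes stayed called without both libraries numbered 2.

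Of the genes known to be induced by TGF-beta in fibroblasts, 26 of 30 were tested, of which 2 were called higher, beside 2.04% of all genes, 1 lower, beside 1.35%, and 23 were not called. The list had a median log2 fold change of 0.06. Fap, among those called higher, passed the filter on low counts through the labelled libraries alone, so that its call adds nothing to the count. Tagln, the actin-binding protein transgelin, fell to 8.98, 6.13 and 10.1 CPM in the labelled libraries, against 23.3, 20.7 and 20.9 CPM in wild-type libraries (log2 fold change -1.36, SE 0.26, edgeR adjusted p = 0.0214). Fap, the fibroblast activation protein gene, named after its values were seen, had 6, 10 and 19 counts in the labelled and 3, 4 and 4 in wild-type libraries (log2 fold change 3.38, SE 0.56, edgeR adjusted p = 0.011). It was below the filter with thinned libraries or a minimum of 1 CPM in 3 libraries. The abundant matrix targets Fn1, Col1a1 and Col1a2 were not called, with log2 fold changes of -0.04, 0.59 and -0.01. Of the 26, 6 had an edgeR unadjusted p under 0.05, beside 11.4% of all genes tested. All labelled libraries lay above wild type in 3, Col1a1 and Fap among them, beside 9.21% of all genes. They lay below in 3, Tagln, Timp3 (log2 fold change -1.32) and Sphk1 (-0.88), beside 9.37%. The call of Tagln was lost without labelled library 1 (edgeR adjusted p = 0.0917), without wild-type libraries 1 or 3 (0.106 and 0.0671) and at thinned depth (0.115), and that of Fap without labelled library 3 (0.0718) or wild-type library 1 (0.0645).

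**Figure D4:**
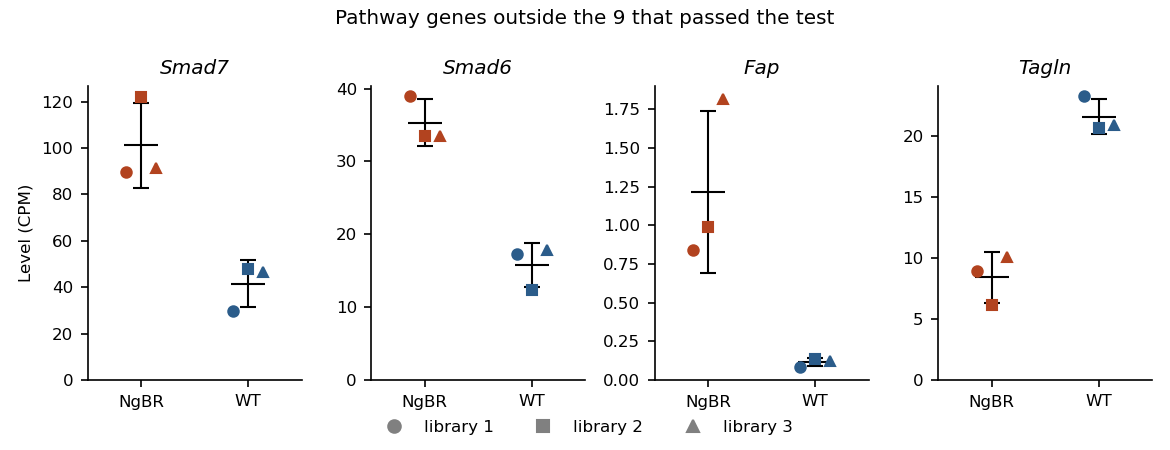
Level in CPM of 4 pathway genes called by edgeR, by library, with NgBR for the libraries labelled NgBR overexpression and WT for wild type, marker shapes for library numbers, and the mean ± SD of 3 libraries in black. Smad7, Smad6 and Fap lie above and Tagln below the wild-type range in all 3 labelled libraries. Fap passed the filter on low counts through the labelled libraries alone, so that its call adds nothing.

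The other lists held no call by edgeR. Of 19 tested genes of latency and activation, 4 had an unadjusted p under 0.05, beside 11.4% of all genes tested. DESeq2 called 4, beside 5.69% of genes, and limma-voom 0, beside 3.24%. Thbs2, a thrombospondin, was at 750, 1269 and 682 CPM in the labelled and at 1813, 2385 and 1700 CPM in wild-type libraries (log2 fold change -1.13, edgeR adjusted p = 0.163), and was called by DESeq2 (adjusted p = 0.013), under a replicate block (0.0207) and without both libraries numbered 2 (0.0235). Thbs1, an activator of latent TGF-beta, was at 432, 2073 and 758 CPM against 1717, 1596 and 1748 CPM (log2 fold change -0.63, edgeR adjusted p = 0.764), and was called without both libraries numbered 2, at -1.54 (edgeR adjusted p = 0.0426). Ltbp1 and Ltbp3, which bind latent TGF-beta covalently, were not called, with log2 fold changes of -0.18 and 0.55.

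Of 10 tested extracellular antagonists, 2 had an unadjusted p under 0.05, beside the 11.4% of all genes, DESeq2 called 1, beside its 5.69%, and limma-voom 0. The most abundant, the proteoglycan gene Bgn and the follistatin-like gene Fstl1, had log2 fold changes of -0.02 and 0.16, and Fstl1 turned to -0.34 without both libraries numbered 2. Of 8 other receptors, 1 had an unadjusted p under 0.05 and DESeq2 and limma-voom called 0, with Bmpr2 and Bmpr1a at -0.02 and -0.23. Of 3 other ligands tested, none had an unadjusted p under 0.05 and both other tools called 0. Inhba, the activin A subunit gene, was at 33.4, 74.8 and 24.7 CPM in the labelled and at 24.0, 79.2 and 25.1 CPM in wild-type libraries, highest in both libraries numbered 2, and Gdf11 had a log2 fold change of -0.22. Of 7 genes of the TAK1 branch, 1 had an unadjusted p under 0.05 and both other tools called 0, with Map3k7, the TAK1 gene, at 0.07 and Tab2 at -0.28.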

How the data were processed

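RNA-seq was measured in 3 libraries labelled NgBR overexpression and 3 wild-type libraries, made from 1.5 micrograms of total RNA with a SMARTer kit, per the labels' protocols. The authors deposited raw counts per gene, 1 column per library with 0 columns left unmapped. Per the submitters' processing notes the tools included HISAT2 2.0.5 and featureCounts 1.5.0-p3 with genome build mm10. The annotation release was not given in the sources used here, nor was the strand setting, so that reads of antisense partners cannot be separated. Positions and union exonic lengths came from GENCODE M21 and matched 97.8% of the gene identifiers.

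Differences in counts were tested by edgeR's quasi-likelihood method (edgeR 4.0.16, R 4.3.3, TMM, filterByExpr, no covariate), with Benjamini-Hochberg adjustment over all 12651 genes tested and calls at an adjusted p under 0.05. CPM used TMM-scaled library sizes of the tested genes, and a level per kilobase is CPM over exonic length. The SE of an edgeR log2 fold change is its absolute value over the square root of the quasi-likelihood F statistic. It is thus derived from the test, also for the members. The members, the lists and the tests were chosen with earlier results of these data known. Named were all 9 members, up to 4 called genes per list that averaged 1 CPM or more, else its 2 most abundant tested genes, and the 5 genes most like Tgfbi and Postn. Smad2 to Smad4, Smurf2, Pmepa1, Strap, Fn1, Col1a1, Col1a2, Timp3, Sphk1, Ltbp1, Ltbp3, Stab1, Stab2 and Map2 were named outside this rule, after their values were seen. Of the genes called in the lists, 1 is counted but not reported here. Alternatives were DESeq2 1.42.0, limma-voom (limma 3.58.1), other factors and filters, thinning, the replicate block and libraries left out. An offset for exonic length was added after the data were seen. The fits were also run on simulated data as a check of the code, and no result here rests on that run. Its counts were drawn independently for each library, without the shift of the libraries numbered 2 or the trend with exonic length.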

Additional observations from a re-analysis of the deposited data

How the results depend on the processing

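The directions of Tgfb1, Tgfb2, Tgfbr1, Tgfbr2, Ltbp2, Tgfbi and Postn held in all 16 alternatives. Tgfb3 and Tgfbr3 changed sign in 3 and 2 of them, and of the pathway genes not called Inhba did in 5, Bmpr2, Fstl1 and Map3k7 in 3 each, and Bgn and Tab2 in 1 each. The labelled libraries were 3.50-fold shallower than wild type, which limits the precision of low counts there. edgeR called 429 genes, 258 higher and 171 lower. The count was 719, 446 and 273 with DESeq2, 688 (302 lower) without a filter on low counts, and 224, 124 and 100 with thinned libraries. It lay between 225 and 581 with libraries left out (higher 141 to 318, lower 84 to 263). The same settings gave 0 to 2 calls for Smads and regulators, 0 to 6 for induced genes and 0 to 2 for latency and activation. Latency and activation had 4 calls with DESeq2, 1 without a filter and 1 with the exonic length offset. Extracellular antagonists had 1 with DESeq2 and 1 without a filter. With thinned libraries Smads and regulators had 1 call and induced genes 0. Fap was below the filter in 2 alternatives. The causes of these differences were not tested.

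Libraries with the same number were correlated in their deviations from the group means with r = 0.0147, 0.341 and 0.434 for numbers 1 to 3 across genes, so that not all 3 pairs passed 0.1 and the numbers were not taken as a pairing. Wild-type library 1 correlated best with labelled library 3, at 0.189. With the replicate block edgeR called 719 genes, 418 higher and 301 lower, of which 2 of latency and activation, 1 extracellular antagonist and 5 induced genes.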
